A study of Mus musculus with 18 samples.

Results

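Cold-exposed subcutaneous white fat (sWAT at 6°C) was compared with unstimulated brown fat (BAT at 28°C) on 6 Affymetrix arrays, 3 of each tissue, out of 18 arrays in the series. Both tissues came from female mice aged 10 wk of a strain labeled Sv129, none of them genetically modified as far as the labels say, housed for 10 days at 6°C (the sWAT donors) or 28°C (the BAT donors). The brown fat was the interscapular pad and the white fat the inguinal pad, which in females surrounds a mammary gland. The other 12 arrays, used as context, hold BAT at 6°C, sWAT at 28°C and mesenteric white fat (mWAT) at both temperatures, with 3 arrays each. Arrays were grouped by their titles, which the source names and descriptions repeat. Their tissue or temperature characteristic names another group for 18 of 18 arrays, all 6 compared here included. Titles explain 98.9% of the Ucp1 variance among arrays and characteristics 48.3%. Whole depots were measured, so fewer cells of a type and less RNA per cell cannot be told apart.

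Brown adipocytes hold many mitochondria and release heat through UCP1, an inner-membrane carrier that lets protons bypass ATP synthase, while white adipocytes mainly store triglyceride. In the cold, sympathetic nerves activate brown fat and make UCP1-positive cells, called beige or brite, appear among white adipocytes, most readily in the inguinal depot of rodents. The paper describes beige cells as distinct from interscapular brown adipocytes. It calls it debated whether they come from mature white adipocytes or from committed precursors. The comparison asks how near browned white fat comes to brown fat that has had no cold stimulus and which genes stay apart.

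Values are log2 intensities, and each gene is given by its brightest probe set unless another is named. Differences are sWAT at 6°C minus BAT at 28°C in log2 ± SE from limma with n = 3 arrays per group, and a probe set passed at an adjusted p under 0.01. Array medians were 7.02 to 7.18 and the brightest probe set of an array lay at 14.46 to 14.58. Where the lower group lies under the median, the exact size of a difference is not measured, since the table holds no detection values. Every value near the upper end may be compressed, which was not tested.

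By its whole profile, sWAT at 6°C stood nearer to BAT at 28°C than sWAT at 28°C did, and farther than BAT at 6°C. The root mean square log2 difference from the mean of the BAT arrays at 28°C was 0.852, 0.858 and 0.875 in sWAT at 6°C and 0.910 to 1.05 in sWAT at 28°C, and these ranges do not overlap. It was 0.533 to 0.638 in BAT at 6°C, 1.02 to 1.18 in mWAT, and 0.377 to 0.458 for each BAT array at 28°C against the other two. The correlation across probe sets, which are not independent replicates, was 0.94 to 0.953 between sWAT at 6°C and BAT at 28°C arrays and 0.983 to 0.989 within BAT at 28°C. Between sWAT at 28°C and BAT at 28°C it was 0.917 to 0.946, which overlaps the range of cold sWAT. In all, 6499 of 45037 probe sets passed (14.4%), of which 2902 were higher in sWAT (6.44%) and 3597 lower (7.99%). Centring each array on its median changes that split, with the higher share of calls going from 44.7% to 30.2%, and shifts the median difference of all probe sets from -0.09 to -0.21. For sWAT at 28°C minus BAT at 28°C, 10301 probe sets passed (22.9%). Both comparisons share the 3 BAT arrays, so their values are set side by side only. For sWAT at 6 minus 28°C 216 probe sets passed (0.48%). The paper reports many more for this contrast. A 95% interval within 2-fold either way, the measure of nearness used below, was found for 61.3% of probe sets at 6°C and 54.9% at 28°C, and for 65.8% of those above the array median in either group at 6°C.

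**Figure D1:**
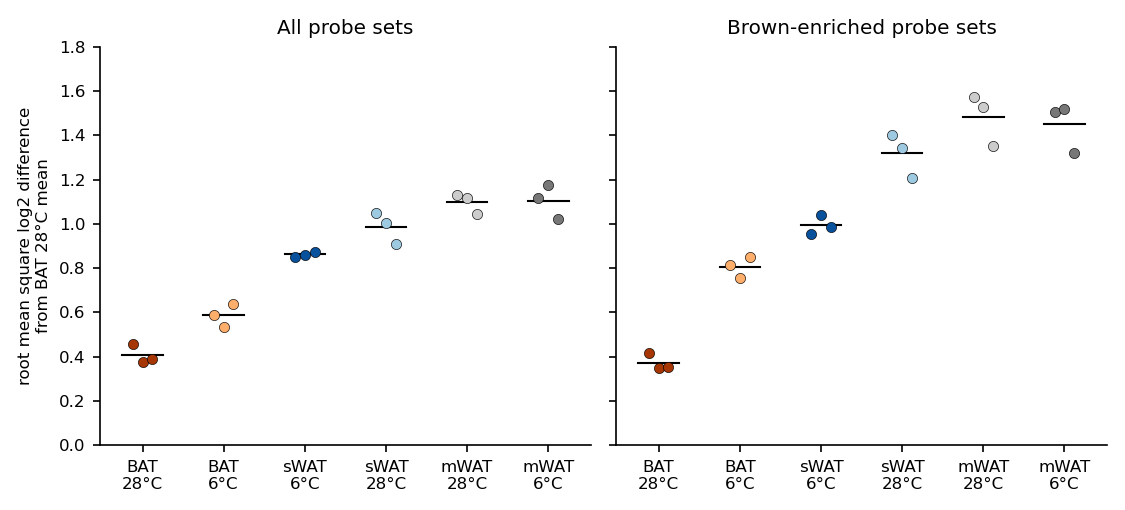
Root mean square log2 difference of each array from the mean of the BAT arrays at 28°C (y axis), by depot and temperature, over all probe sets (left) and over brown-enriched probe sets (right), with points for arrays and lines for group means. Each BAT 28°C array is set against the mean of the other two, and the sWAT 6°C arrays (0.852 to 0.875, left) lie between BAT at 6°C and sWAT at 28°C.

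To ask which side of the brown program was reached, brown-enriched and white-enriched probe sets were chosen from the 12 arrays outside the comparison, as those at least 2-fold apart between BAT and mWAT at 6°C. Of 4719 brown-enriched probe sets, 37% were lower in sWAT at 6°C than in BAT at 28°C (7.99% of all probe sets), 1.27% were higher, and 43.8% were within 2-fold, with a median difference of -0.59. For sWAT at 28°C the same set had 59.3% lower (13.2% of all), 25.3% within 2-fold and a median of -0.91. Of 4156 white-enriched probe sets, 36.4% were higher in sWAT at 6°C (6.44% of all) and 23.7% within 2-fold, with a median of 0.80, while sWAT at 28°C had 50.3% higher (9.66% of all), 17.8% within 2-fold and a median of 1.02. Over the 9 pairs of a sWAT array at 6°C and a BAT array at 28°C the median kept its direction. It ran from -0.72 to -0.48 for the brown-enriched and from 0.66 to 0.97 for the white-enriched set. The white-enriched set is mesenteric, and the part of other cell types of that depot in it was not tested. In mWAT at 6°C lymphocyte genes had mean levels of 10.91, 10.83 and 6.37, and mesothelial genes 10.18 to 11.57. In a check that was not set beforehand, mWAT replicate 3 of both temperatures was left out of the choice. Then 27.8% of white-enriched probe sets were higher and 35.1% of brown-enriched ones lower. Both shares rose when dim probe sets were left out, which kept 22519 probe sets. There 52.7% of brown-enriched probe sets were lower and 49.9% of white-enriched ones higher. Both shares fell with 1 array left out, to 25.4% to 30.5% and 23.8% to 29.8%.

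The start-site sequences of a gene that came near warm brown fat (Ucp1), a gene that rose with cold in sWAT but stayed lower (Slc27a2, a fatty acid transporter and acyl-CoA synthetase) and a gene that stayed low (Zic1, a zinc-finger transcription factor) follow here to set the 3 patterns beside their promoters. They are the 250 bases before the annotated start, 5′ to 3′ on the gene's strand, from RefSeq on GRCm38.p6: chr8:83290098-83290347 (plus strand), chr2:126552774-126553023 (plus strand) and chr9:91365769-91366018 (minus strand). Capitals mark the nuclear receptor half-site AGGTCA or its reverse complement TGACCT, a pair of which PPARα and PPARγ bind with their partner RXR.

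Ucp1: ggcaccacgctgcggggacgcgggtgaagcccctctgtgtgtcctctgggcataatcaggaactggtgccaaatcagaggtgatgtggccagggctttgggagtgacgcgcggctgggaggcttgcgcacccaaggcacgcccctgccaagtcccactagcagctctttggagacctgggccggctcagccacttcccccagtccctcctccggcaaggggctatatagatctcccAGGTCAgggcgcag
Slc27a2: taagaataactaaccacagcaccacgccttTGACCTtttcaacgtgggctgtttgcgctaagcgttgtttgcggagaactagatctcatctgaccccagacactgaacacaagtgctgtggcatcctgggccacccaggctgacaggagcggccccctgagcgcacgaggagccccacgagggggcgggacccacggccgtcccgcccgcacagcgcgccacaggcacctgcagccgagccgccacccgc
Zic1: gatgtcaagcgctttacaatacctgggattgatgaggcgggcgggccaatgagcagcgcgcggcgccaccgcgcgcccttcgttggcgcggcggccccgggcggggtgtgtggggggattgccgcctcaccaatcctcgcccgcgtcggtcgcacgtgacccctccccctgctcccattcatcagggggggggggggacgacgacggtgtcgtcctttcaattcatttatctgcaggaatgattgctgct

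The half-site, searched on both strands, occurs once in the Ucp1 window, once in the Slc27a2 window and not in that of Zic1. It occurs in 14% of 32851 promoter windows of this length and in the window of 15.3% of 2281 brown-enriched genes, against 15.8% of 27025 genes with a promoter in the table. A match of these letters is no evidence of binding.

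Ucp1 and a few other genes that were far from BAT in warm sWAT had come close to it at 6°C. Ucp1 had log2 intensities of 13.77, 13.68 and 13.95 in sWAT at 6°C and 14.07, 13.99 and 14.02 in BAT at 28°C, a difference of -0.23 ± 0.29 (95% interval -0.86 to 0.40, adjusted p = 0.61). The sWAT arrays all lay under the BAT arrays, though by less than 2-fold at either end of the interval. In sWAT at 28°C Ucp1 was at 10.39, 9.52 and 10.55, lower than BAT at 28°C by 3.87 ± 0.29 or 14.7-fold (adjusted p = 3.6e-07). It is among the brightest 0.466% of probe sets on every compared array, and in BAT at 6°C it reached 14.31 to 14.40.

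A further 5 probe sets met the same rule, which asks for a difference of at least 4-fold at 28°C and an interval within 2-fold at 6°C. Cox8b, the muscle and brown fat form of a cytochrome c oxidase subunit, was at 13.60, 13.40 and 13.56 in sWAT at 6°C against 13.96 to 14.04 in BAT at 28°C, a difference of -0.48 ± 0.18 (adjusted p = 0.069) where sWAT at 28°C stood at -2.30. Acot11, an acyl-CoA thioesterase that cold induces in brown fat, was at 12.76, 12.28 and 12.76 against 13.24, 13.09 and 13.02 (-0.52 ± 0.20, adjusted p = 0.069), from -3.23 at 28°C. Its other probe set was lower in sWAT past the threshold. Slc25a20, the carnitine-acylcarnitine carrier, differed by -0.52 ± 0.16 in the probe set that met the rule and by -0.28 ± 0.11 in its brighter one. The other 2 were Poln, a DNA polymerase (-0.32 ± 0.21), and Defb29, a defensin (0.04 ± 0.36), which had been higher than BAT in sWAT at 28°C and whose arrays all lay under the array medians.

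Several other effectors lay close without meeting every part of that rule. Letm1, an inner-membrane protein of cation exchange, had overlapping arrays (11.73, 11.37 and 11.26 against 11.68, 11.24 and 11.46) and a difference of -0.01 ± 0.16 in its brightest probe set, while 1 of its 4 probe sets was higher in sWAT. Cidea, a lipid droplet protein of brown adipocytes, was at 13.43, 13.27 and 13.52 against 13.99, 13.93 and 13.96 (-0.55 ± 0.24, adjusted p = 0.11). Its interval reached -1.07, just past 2-fold. Otop1, a proton channel, differed by -0.50 ± 0.27 (adjusted p = 0.19), and Ffar4, the receptor for long-chain fatty acids also called GPR120, by 0.43 ± 0.21 (adjusted p = 0.15). Bmp8b, a secreted factor of thermogenic fat, overlapped at low levels (6.38, 5.88 and 7.13 against 7.02, 6.71 and 6.16; -0.17 ± 0.29) and was at 10.57 to 11.08 in BAT at 6°C.

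Other genes had negative differences that did not pass, which does not show that the levels are alike. Fabp3, the heart-type fatty acid-binding protein, was at 13.40, 12.52 and 13.57 against 14.18, 14.09 and 14.16 (-0.98 ± 0.30, adjusted p = 0.027). Dio2, the deiodinase that makes active thyroid hormone within the cell, was at 10.96, 9.17 and 10.54, all under the BAT arrays, which had a mean of 11.18 (-0.96 ± 0.45, adjusted p = 0.13). Replicate 2 was the lowest sWAT array for both. Ppargc1a, which encodes the mitochondrial coactivator PGC-1α, differed by -1.24 ± 0.40 (adjusted p = 0.031) in its brightest probe set, and 3 of its 5 probe sets were lower past the threshold. Rgs7, a regulator of G protein signaling (-1.03 ± 0.30, adjusted p = 0.021), and Nrg4, a secreted neuregulin (-0.59 ± 0.17, adjusted p = 0.023), had every sWAT array under every BAT array without passing.

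**Figure D2:**
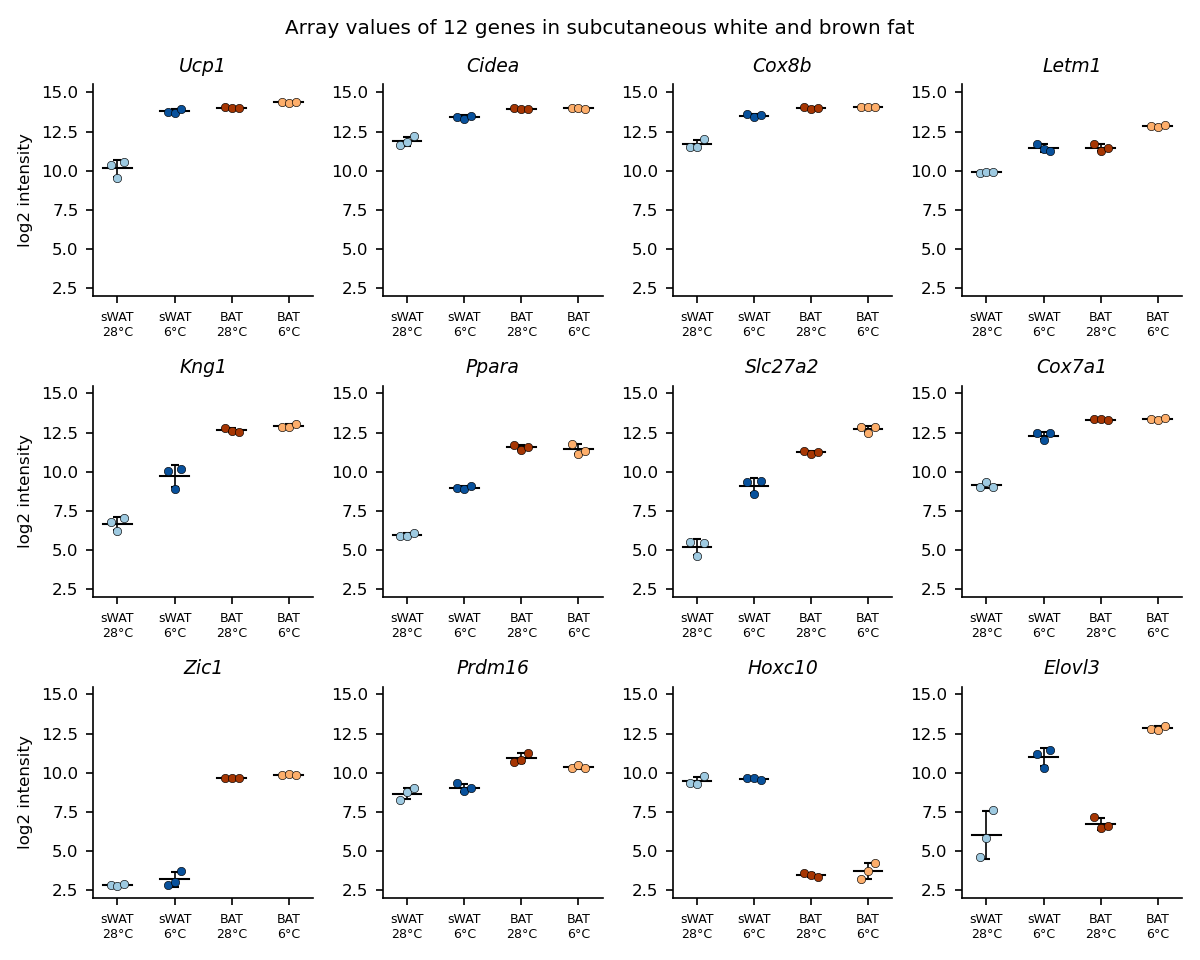
Log2 intensity (y axis) of 12 genes in sWAT and BAT at 28 and 6°C, with points for the 3 arrays of a group, horizontal lines for means and bars for SD. Ucp1 in sWAT at 6°C (13.68 to 13.95) is beside BAT, Kng1, Ppara and Slc27a2 lie between sWAT at 28°C and BAT, Zic1 stays under 4 in sWAT, and Elovl3 is higher in sWAT at 6°C than in BAT at 28°C.

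Other brown fat genes were raised in sWAT by cold and still lay well under unstimulated BAT. Kng1, which encodes kininogen, was at 10.05, 8.92 and 10.18 in sWAT at 6°C and at 12.77, 12.63 and 12.56 in BAT at 28°C, a difference of -2.93 ± 0.30 or 7.63-fold (adjusted p = 9.5e-06), from -5.96 at 28°C. Cpn2, a carboxypeptidase N subunit, was at 7.94, 6.13 and 7.94 against 10.86, 10.48 and 10.86 (-3.40 ± 0.36, adjusted p = 1.5e-05), from -5.98. Slc27a2 was at 9.36, 8.59 and 9.42 against 11.31, 11.13 and 11.29 (-2.12 ± 0.34, adjusted p = 0.00044), from -6.04. The groups did not overlap in any of these genes, and each rose in sWAT at 6 versus 28°C past the threshold, as 0.72% of genes did (0.022% fell). Pank1, a kinase of coenzyme A synthesis (-1.81 ± 0.24), Plin5, which ties lipid droplets to mitochondria (-1.16 ± 0.20), and Cideb, a lipid droplet protein (-2.84 ± 0.37), followed the same pattern. Pm20d1, a secreted enzyme that makes N-acyl amino acids, was lower by 2.13 ± 0.25 and S100b, a calcium-binding protein of neurotrophic action, by 2.65 ± 0.33 (adjusted p = 3.5e-05 and 6e-05). Neither had passed here for sWAT at 6 minus 28°C, though the paper lists both among genes raised by cold in sWAT. Over the whole list of 25 thermogenic and brown fat metabolic genes, 8 were lower (32%, against 8.33% of all genes), 1 was higher (Elovl3) and 9 were within 2-fold (60.7% of all genes), with a median of -0.85 against -0.05 for all genes. In sWAT at 28°C 22 of the 25 had been lower than BAT (14.5% of all genes), with a median of -2.75.

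Cox7a1, the muscle and brown fat form of another cytochrome c oxidase subunit, lay at the edge of the call. It was at 12.45, 12.05 and 12.44 in sWAT at 6°C and 13.34, 13.34 and 13.30 in BAT at 28°C, a difference of -1.01 ± 0.25 (adjusted p = 0.0075), from -4.19 at 28°C. The call was lost without any 1 of the 6 arrays.

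Of 22 transcription regulators of brown and beige fat 7 were lower (8.33% of all genes), 1 was higher and 14 did not pass. Ppara, the fatty acid receptor that drives genes of fat oxidation, was at 8.97, 8.90 and 9.08 in sWAT at 6°C and 11.70, 11.41 and 11.57 in BAT at 28°C (-2.58 ± 0.27, adjusted p = 1.3e-05), although sWAT at 28°C had been at -5.59. Esrrg was lower by 2.10 ± 0.20 and Esrra by 1.23 ± 0.19 (adjusted p = 6e-06 and 0.00027), both estrogen-related receptors of mitochondrial genes, and Ppargc1b, a PGC-1 family coactivator, by 1.97 ± 0.23. Prdm16, a determinant of brown and beige fate, was at 9.33, 8.83 and 9.01 against 10.70, 10.84 and 11.29 (-1.89 ± 0.23, adjusted p = 4.1e-05). Ebf2, which acts with PPARγ in brown precursors, was at 10.43, 9.77 and 9.60 against 11.83, 11.92 and 11.79 (-1.92 ± 0.25, adjusted p = 6.8e-05). These last 2 stood a little above their levels in sWAT at 28°C, 8.68 for Prdm16 and 9.55 for Ebf2. The paper states that cold raised Prdm16 in sWAT. Pparg, the adipocyte master regulator, was lower by 0.63 ± 0.14 (adjusted p = 0.004), a call lost without sWAT replicate 1 or 2 or BAT replicate 1 or 3. The higher gene was Nrip1, a corepressor of oxidative genes (1.17 ± 0.24, adjusted p = 0.0022), a call lost without sWAT replicate 1 or BAT replicate 1.

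Most mitochondrial genes lay within 2-fold of BAT, with negative estimates. Complex I, the NADH dehydrogenase of the respiratory chain, had 19 of 34 subunits lower (8.33% of all genes), yet 30 of 34 were within 2-fold (60.7% of all genes) and the median was -0.44, from -0.75 at 28°C. Apart from Ndufb4 every subunit differed by less than 1, for example Ndufs5 at -0.87 (lost without sWAT replicate 1) and Ndufa6 at -0.78 ± 0.11 (adjusted p = 0.0002), and all 34 estimates were negative. Ndufb4, measured here by a dim probe set at 5.0 to 6.7, was farthest (-1.46 ± 0.18). With 1 array left out, 6 to 14 complex I genes passed, the fewest without BAT replicate 1 and the most without sWAT replicate 1, and 2 passed without BAT replicates 2 and 3. The count was 7 on the 6 arrays alone, 29 with median centring or at an adjusted p of 0.05, and 30 with a variance trend. Taking together 8 lists of mitochondrial energy metabolism with 144 genes, 57 were lower (39.6%, against 8.33% of all genes), 3 higher and 84 did not pass, while 117 were within 2-fold (81.2%, against 60.7%), with a median of -0.40. With 1 array left out 26 to 39 were lower, fewest without BAT replicate 1. In sWAT at 28°C 119 of the 144 were lower and 59 within 2-fold (53.6% of all genes), with a median of -0.85.

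Within these lists the enzymes differed in how far they stayed behind. Idh2, the NADP-dependent isocitrate dehydrogenase of mitochondria, was at 11.37, 11.23 and 11.35 in sWAT at 6°C and 12.91, 12.95 and 13.02 in BAT at 28°C (-1.64 ± 0.16, adjusted p = 6.7e-06), hardly above the 11.04 to 11.29 of sWAT at 28°C. In all 11 of 19 citrate cycle genes were lower (8.33% of all genes; 6 to 9 with 1 array left out, fewest without sWAT replicate 1 or BAT replicate 1 or 3, and 2 without BAT replicates 2 and 3) and 1 was higher, Pcx, the pyruvate carboxylase that also feeds lipogenesis (0.66 ± 0.14, adjusted p = 0.0034, a call that held only without sWAT replicate 3 when 1 array was left out). Of 19 genes of fatty acid oxidation 8 were lower, Eci1 the farthest (-0.94 ± 0.17), and 1 was higher. The higher gene was Cpt1a, the liver isoform of the carnitine gate (1.20 ± 0.22, adjusted p = 0.0013). Its muscle counterpart Cpt1b had no probe set naming it alone and was not measured. Of 12 ubiquinone genes 5 were lower, led by Coq6, a hydroxylase of the pathway (-1.45 ± 0.18), and of 19 genes of branched-chain amino acid breakdown also 5, led by Auh (-1.16 ± 0.17). In fatty acid oxidation 2 to 5 genes were lower with 1 array left out, which is fewer by over 1.5 times. The separate list of 17 mitochondrial carriers had 3 lower, 1 higher and a median of -0.04. Slc25a42, which carries coenzyme A, was lower by 1.63 ± 0.14 (adjusted p = 3.2e-06), and Slc25a10, the dicarboxylate carrier, was higher by 1.88 ± 0.28 (adjusted p = 0.00022).

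The paired isoforms of cytochrome c oxidase did not behave alike. As given above, Cox8b had an interval within 2-fold, while Cox7a1 differed by -1.01 and passed as lower, at the edge of the call. Their widely expressed partners differed by less (Cox8a -0.32 ± 0.11, Cox7a2 -0.24 ± 0.10). Cox6b2, known as the testis form, stayed low, at 8.80, 8.80 and 8.79 against 11.13, 11.18 and 11.79 (-2.57 ± 0.28, adjusted p = 1.7e-05), beside a Cox6b1 difference of -0.23 ± 0.09. Cox6a2, the muscle form, was at 7.15, 9.31 and 7.51 against 7.70, 11.76 and 11.06, with overlapping groups (-2.18 ± 0.89, adjusted p = 0.085). Its high arrays are those with high skeletal muscle genes, described below, and without BAT replicates 2 and 3 its difference was 0.29. Of 15 genes listed for cytochrome c oxidase 4 were lower (8.33% of all genes; 2 or 3 with 1 array left out), with Cox7a2l (-0.59 ± 0.09) and Cox5a (-0.47 ± 0.10) beside Cox6b2 and Cox7a1. The Cox5a call was lost without sWAT replicate 2 or 3 or BAT replicate 1 or 3.

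**Figure D3:**
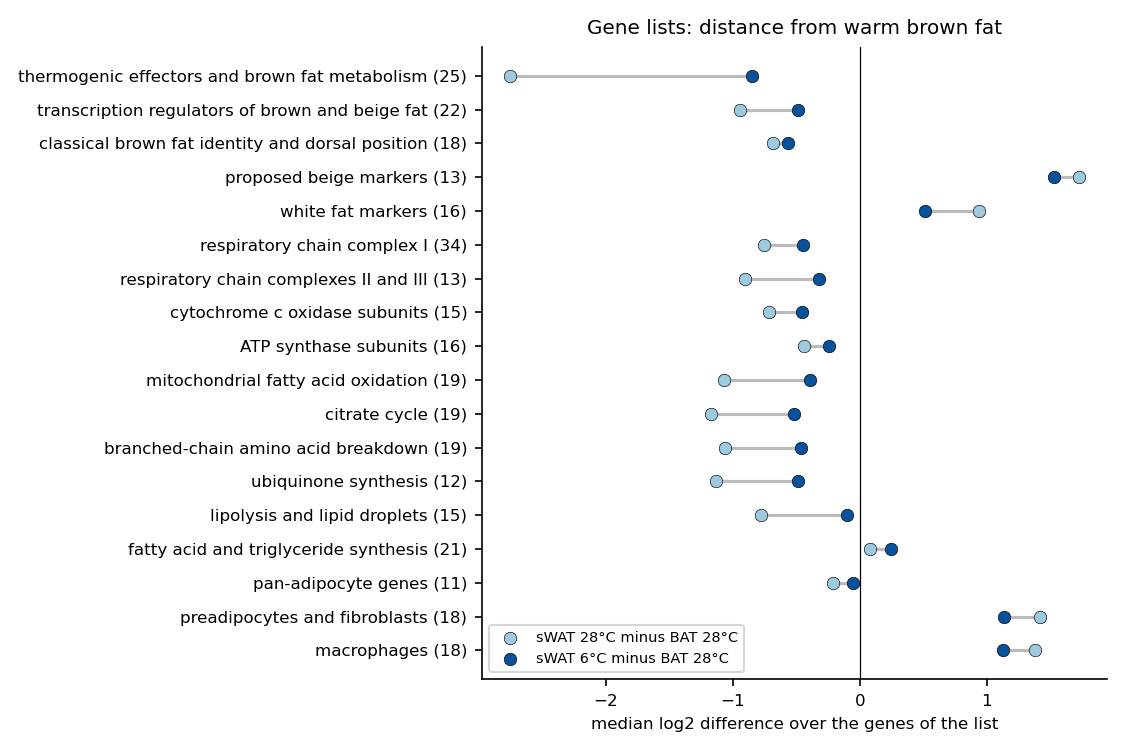
Median log2 difference from BAT at 28°C (x axis) over the genes of 18 lists (number of measured genes in brackets), for sWAT at 28°C (pale) and sWAT at 6°C (dark). The thermogenic list moves from -2.75 to -0.85 and the mitochondrial lists to between -0.51 and -0.24, while the lists of proposed beige markers, fibroblasts and macrophages stay above 1; the 2 comparisons share the BAT arrays.

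Some developmental genes stood far apart, in sWAT at 6°C as at 28°C, while most genes of their lists did not pass. Zic1, a marker of the dorsal origin of interscapular fat, was at 2.87, 3.01 and 3.74 in sWAT at 6°C and 9.67, 9.69 and 9.68 in BAT at 28°C, a difference of -6.47 ± 0.17 (adjusted p = 2.7e-11). Its level in sWAT at 28°C was 2.81 to 2.91, among the dimmest of the array like that at 6°C. Olig1, a transcription factor known from oligodendrocytes, was at 5.57, 5.35 and 5.22 against 10.25, 10.05 and 10.44 (-4.87 ± 0.24, adjusted p = 4.3e-08). Of 18 genes of classical brown fat identity 5 were lower (8.33% of all genes) and 13 did not pass, with a median of -0.56. The lower genes were Zic1, Olig1, Lhx8 (-1.77 ± 0.45), Mpzl2 (-0.96 ± 0.23) and, at 2.89 to 4.84, Myf5 (-1.12 ± 0.27). With 1 array left out 2 or 3 were lower, Zic1 and Olig1 each time and Lhx8 not once, and En1, a homeobox gene (1.42 in the fit of all arrays), passed as higher without sWAT replicate 3 or BAT replicate 2. The other 8 of the 10 genes with the largest lower values were Nts, the peptide neurotensin (-4.70 ± 0.38), Camk2b, a calmodulin-dependent kinase (-4.58 ± 0.30), Mapt, the microtubule protein tau (-4.32 ± 0.33, in 4 of 4 probe sets), Magel2, an imprinted gene (-3.93 ± 0.36), Them7, Fer1l6, Plet1os and 2310015D24Rik. In those 8 genes the sWAT arrays at 6°C lay at or under 7.10 and the BAT arrays at or above 7.18. Fer1l6 and Plet1os did rise in sWAT with cold (by 1.75 and 1.85, adjusted p = 0.0093 and 0.0051), from very low levels.

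Hox genes, which record position along the body axis, that passed were split by paralog number. Of 33 measured, 6 were higher and 6 lower, against 9.03% and 8.33% of all genes, and 21 did not pass. The 6 lower were Hoxa2, Hoxa3, Hoxa4, Hoxa5, Hoxc4 and Hoxc5, all among the 17 of paralogs 1 to 7, and the 6 higher were Hoxc8, Hoxa9, Hoxc9, Hoxa10, Hoxc10 and Hoxd10, all among the 16 of paralogs 8 to 13. Hoxc10 was at 9.69, 9.64 and 9.57 in sWAT at 6°C and 3.64, 3.49 and 3.33 in BAT at 28°C (6.14 ± 0.53, adjusted p = 2.9e-06), and Hoxa10 was higher by 6.65 ± 0.98 in the probe set of largest difference. Hoxa5 was at 7.23, 6.98 and 7.10 against 9.64, 9.16 and 9.14 (-2.21 ± 0.29, adjusted p = 8.8e-05). Hoxc9, also used as a beige marker, was at 9.14, 9.12 and 9.28 against 6.25, 6.73 and 6.93 (2.54 ± 0.28). Their levels in sWAT at 28°C were 9.31 to 9.80 for Hoxc10, 6.62 to 7.11 for Hoxa5 and 8.80 to 9.26 for Hoxc9, and the differences of 6 minus 28°C were 0.14, 0.29 and 0.15. With each array left out in turn, the calls of Hoxa9, Hoxc9, Hoxa10, Hoxc10, Hoxd10, Hoxa4, Hoxa5 and Hoxc5 held. The Hoxc4 call was lost each time, Hoxc8 without BAT replicate 1, Hoxa3 without sWAT replicate 3 or BAT replicate 1, and Hoxa2 without either of these or BAT replicate 3.

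**Figure D4:**
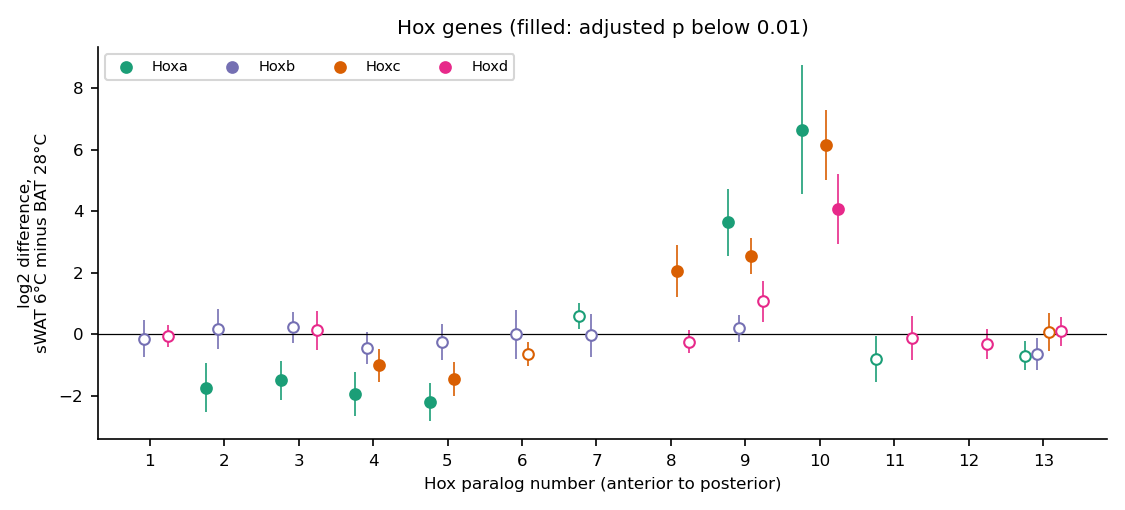
Log2 difference of 33 Hox genes (y axis, sWAT at 6°C minus BAT at 28°C, bars 95% intervals) by paralog number (x axis) and cluster (color), filled where the adjusted p was under 0.01. The 6 filled points under 0 lie at paralogs 2 to 5 and the 6 above 0 at paralogs 8 to 10.

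Many proposed beige markers stood above BAT at both temperatures. Of 13 genes 6 were higher (46.2%, against 9.03% of all genes) and 1 lower. Shox2, a homeobox gene, was at 10.14, 10.19 and 10.31 in sWAT at 6°C and 7.04, 6.92 and 7.20 in BAT at 28°C (3.16 ± 0.19, adjusted p = 1.3e-07). Cited1, a transcriptional coregulator, was at 9.29, 8.49 and 8.17 against 5.06, 5.37 and 6.08 (3.14 ± 0.44), Tbx1, a T-box factor, was higher by 2.51 ± 0.37, and Tmem26, a membrane protein, by 2.24 ± 0.33. In sWAT at 28°C the means were 9.64 for Shox2, 9.99 for Cited1, 6.32 for Tbx1 and 6.81 for Tmem26. P2rx5, an ATP-gated channel of brown and beige fat, was lower (-1.73 ± 0.25, adjusted p = 0.00016).

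Genes of white fat and of the adipocyte in general gave 2 pictures. Of 11 pan-adipocyte genes 11 were within 2-fold (60.7% of all genes), with Pparg alone past the threshold. Their mean level was 13.27 to 13.32 in sWAT at 6°C and 13.34 to 13.37 in BAT at 28°C. Of 16 white fat markers 6 were higher (9.03% of all genes) and 1 lower (8.33%). Retn, which encodes resistin, was at 13.83, 13.65 and 13.85 against 11.72, 12.75 and 12.62 (1.42 ± 0.26, adjusted p = 0.0012), and Psat1, an enzyme of serine synthesis, was higher by 2.13 ± 0.23. Lep, which encodes leptin, overlapped (12.33, 11.34 and 12.36 against 12.25, 12.72 and 12.36; -0.43 ± 0.58). Nnat, an imprinted membrane protein, was the lower one, at 7.08, 9.14 and 7.17 against 10.17, 11.50 and 11.67 (-3.32 ± 0.59, adjusted p = 0.00084). In sWAT at 28°C it had been at 11.14 to 12.37, beside BAT. Its adjusted p was 0.071 without BAT replicates 2 and 3. Of 21 genes of fatty acid and triglyceride synthesis 17 were within 2-fold (81%, against 60.7% of all genes) and none was lower. In this list 4 were higher (9.03% of all genes), namely Elovl3, Elovl1 (0.97 ± 0.11), Elovl6 (0.74 ± 0.11) and Me1 (0.57 ± 0.14), the last lost without any 1 array.

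Some genes were higher in cold sWAT than in warm BAT and were also higher in BAT at 6 than at 28°C, as 2.8% of genes were. Elovl3, which elongates fatty acids in cold-stimulated brown fat, was at 11.20, 10.34 and 11.46 in sWAT at 6°C and 7.20, 6.49 and 6.60 in BAT at 28°C (4.24 ± 0.62 or 18.9-fold, adjusted p = 0.00019). It was at 12.74 to 12.97 in BAT at 6°C and at 4.64, 5.84 and 7.65 in sWAT at 28°C. The transcript 9030619P08Rik was at 8.98, 8.11 and 9.13 against 4.44, 5.12 and 5.57 (3.70 ± 0.33, adjusted p = 4e-06), with 9.75 to 10.61 in BAT at 6°C. Without BAT replicates 2 and 3 the adjusted p of Elovl3 was 0.018. Adcy10, the soluble adenylyl cyclase, was higher by 2.03 ± 0.36, Gys2, the liver glycogen synthase, by 1.56 ± 0.23, and Acaa1b, a peroxisomal thiolase, by 1.79 ± 0.25, with means of 9.48, 12.37 and 12.18 in BAT at 6°C. Ncan, a brain proteoglycan chosen after its values were seen, was at 11.23, 10.65 and 10.67 against 8.67, 8.39 and 7.56 (2.65 ± 0.40), with 11.69 in BAT at 6°C. Elovl3, 9030619P08Rik, Adcy10 and Ncan are among the brown-enriched probe sets that were higher in sWAT, 60 in all. Fam20c, a kinase of secreted proteins and also chosen after its values were seen, went the other way, with a mean of 8.85 against 11.16, 11.10 and 10.87 (-2.19 ± 0.21), with 8.28 in BAT at 6°C. Of 18 circadian clock genes 3 were higher (9.03% of all genes), 2 lower (8.33%) and 13 did not pass, with a median of 0.05. Dbp, a clock output factor, was at 11.15, 11.64 and 12.24 against 8.81, 9.61 and 9.57 (2.35 ± 0.36, adjusted p = 0.00029), and its repressor counterpart Nfil3 was lower (-1.59 ± 0.20).

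Marker genes of several other cell types moved with the comparison, and their part in the results was not tested. Other lists had medians nearer 0, namely -0.07 for endothelium, 0.01 for Schwann cells and nerve and 0.26 for pericytes and smooth muscle. Each of these had 2 genes higher and 1 lower (9.03% and 8.33% of all genes). Within 2-fold were 10 of 13, 4 of 13 and 5 of 10 of their genes (60.7% of all genes). The 10 largest higher values include Cxcl15, a chemokine (7.07 ± 0.38), Tmprss2, Slc5a5, the iodide transporter (6.79 ± 0.67), Foxa1, an epithelial transcription factor (6.75 ± 0.54), Csn3, the milk protein κ-casein (6.47 ± 1.29), and Ltf, lactoferrin (6.29 ± 0.83). Of 26 mammary epithelial genes 21 were higher (9.03% of all genes), with a mean level of 9.65 to 9.85 in sWAT at 6°C, 10.17 to 11.63 in sWAT at 28°C and 4.81, 6.05 and 7.24 in BAT at 28°C. Csn3 was at 12.91, 12.79 and 12.79 in sWAT and at 2.86, 7.18 and 9.06 in the 3 BAT arrays. Tfap2c, Tfap2a, Irx1 and Irx2, named after their values were seen, are brown-enriched probe sets that were higher in sWAT, and Tfap2c is also a member of the mammary list. They were chosen on dim values, with means of 5.79, 5.31, 5.53 and 6.10 in BAT at 6°C. In mWAT at 6°C the means were 4.11, 3.74, 4.10 and 4.80, and all 8 lie under the array medians. In sWAT at 28°C they were at 11.79, 10.28, 9.61 and 10.42.

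Of 18 macrophage genes 12 were higher (9.03% of all genes), Cd163, a scavenger receptor, by 1.47 ± 0.23 and Ctss, a lysosomal protease, by 2.25 ± 0.55, the latter call lost without any 1 array. With 1 array left out 8 or 9 of the macrophage genes passed. The mean level was 10.35 to 10.71 in sWAT at 6°C and 9.30 to 9.64 in BAT at 28°C. Of 18 genes of preadipocytes and fibroblasts 10 were higher (9.03% of all genes; 4 to 12 with 1 array left out), led by Thy1 (2.73 ± 0.30) and Dpp4 (2.21 ± 0.27), and Dlk1, which encodes the preadipocyte factor Pref-1, was lower (-1.92 ± 0.25). The lymphocyte genes had a median of 3.96, with mean levels of 9.15 to 10.14 against 5.61 to 6.56. Of 17 lymphocyte genes 15 passed as higher in a fit of the 6 arrays alone, as did 3520 of all 45037 probe sets. At an adjusted p of 0.05 it was 12, beside 5199 of the 45037. In the fit of all arrays at 0.01 (9.03% of all genes higher) only the B cell gene Ms4a1 did (a difference of 4.79, adjusted p = 0.0029). That call was lost without sWAT replicate 2 or 3 or BAT replicate 1 or 2.

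Skeletal muscle genes varied within both groups. Their mean level was 6.50, 10.43 and 7.12 in sWAT at 6°C and 8.43, 12.27 and 11.64 in BAT at 28°C, so that sWAT replicate 2 and BAT replicates 2 and 3 stand apart. The median difference of the 24 genes was -2.98, and -0.48 without BAT replicates 2 and 3. Actn2, an α-actinin, alone passed as lower with all arrays, where 8.33% of all genes did. Without BAT replicate 1 it was 7 genes of the list and without sWAT replicate 2 it was 3. Actn2 was at 6.85, 8.03 and 6.89 against 10.29, 10.55 and 10.61 (-3.23 ± 0.38, adjusted p = 3.6e-05), with -3.03 without BAT replicates 2 and 3. Without them, which leaves 1 BAT array at 28°C taken to vary like the other groups, Ucp1 differed by -0.27, Zic1 by -6.46, Ppara by -2.72, Kng1 by -3.05 and Hoxc10 by 5.99, and 716 of the 4719 brown-enriched probe sets were lower (15.2%).

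**Figure D5:**
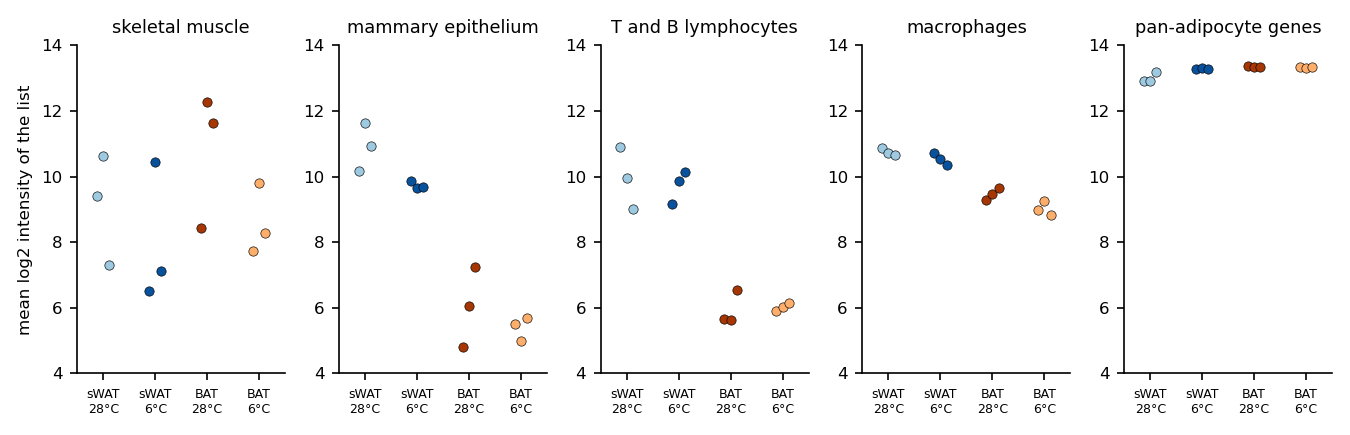
Mean log2 intensity (y axis) of 5 marker lists on each of the 3 arrays of sWAT and BAT at 28 and 6°C (x axis). Mammary, lymphocyte and macrophage lists are higher in every sWAT array at 6°C than in every BAT array at 28°C, the muscle list overlaps between these groups (6.50 to 12.27), and the pan-adipocyte list stays between 13.27 and 13.37 in both.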

How the data were processed

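RNA of each depot was extracted with Trizol, amplified (NuGEN Ovation) and hybridized by the study, with 3 biological replicates. The deposited values are linear intensities, 1 per probe set and array, made by the authors in Bioconductor by background correction, normalization and summary of the probes, with the algorithm not given in the sources used here. The methods and the legends name different array types. Intensities were taken to log2 without further normalization or filter. A limma 3.58.1 fit in R 4.3.3 with 6 group means over 18 arrays (12 residual degrees of freedom) was adjusted by Benjamini-Hochberg over 45037 probe sets, with 64 control probe sets left out and a threshold of 0.01 as in the methods. The labels do not say whether replicates share a mouse or litter, so p-values measure the spread between these arrays. Of the probe sets, 34945 name 1 gene, which gives 18193 genes, and symbols were updated through RefSeq.

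Named genes are the 10 largest differences each way, 28 fixed genes, up to 4 members of each of 36 lists, near genes, oxidase isoforms and genes that spell out a count of 5 or fewer (such as Nrip1, P2rx5 and Mpzl2). Pank1, Pm20d1, Esrra, Tmem26, Ncan, Fam20c, Tfap2a, Tfap2c, Irx1, Irx2, Hoxc8 and the lower Hox genes lie outside this rule and were named after their values were seen. The members and lists were chosen with earlier results of these data known. List counts carry no set test. Of 30 fixed genes, Adrb3 and Cpt1b had no probe set naming them alone. The fit was tested on simulated data. Alternatives were other thresholds, scaling, a dim-probe filter, a variance trend, the 6 arrays alone, the mean of a gene's probe sets and leaving out arrays. The number of arrays limits the precision.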

Additional observations from a re-analysis of the deposited data

How the results depend on the processing

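With 1 array left out, the probe sets past the threshold numbered 4087 to 4669 in place of 6499 (1834 to 2195 higher, 2253 to 2686 lower), fewest without BAT replicate 1 (4087) and sWAT replicate 2 (4220). White-enriched probe sets higher in sWAT then numbered 989 to 1238, brown-enriched lower 1197 to 1437 and those within 2-fold 24637 to 25594. List genes called numbered 144 to 157 of 597, in place of 205 in the fit of all arrays, where 17.4% of all genes passed. At an adjusted p of 0.05 the total was 11977 (5199 higher, 6778 lower), with 2557 white-enriched probe sets higher and 317 list genes. With a 2-fold minimum added it was 3739, with 1634 lower, 991 brown-enriched lower and 130 list genes. Median centring gave 5481 lower and 2756 brown-enriched lower, 39% of the larger set then chosen, and leaving out dim probe sets left 15678 within 2-fold because fewer were tested. Without BAT replicates 2 and 3, an alternative added after seeing the data, the counts were 2289 (1184 higher, 1105 lower), 716 brown-enriched lower, 750 white-enriched higher, 18175 within 2-fold and 96 list genes. Quantile normalization, the 6 arrays alone and a variance trend kept these counts within 1.5 times, though the 6 arrays alone turned the split to 57% higher. No call among the 160 named probe sets turned its sign, though values that had not passed did (Ffar4, Bmp8b, Letm1, Defb29 and Cox6a2, each under at least 1 alternative), and of the values under the alternatives 1918 kept their side of the threshold, 275 lost a call and 17 gained one. No paired analysis was possible because the arrays carry no shared replicate numbers. With no detection values, folds against dim probe sets are not measured exactly.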
